A study of Mus musculus with 4 samples.

Results

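The RNA of 10 genes that carry and restrain the transforming growth factor beta signal was read in mouse regulatory T cells, the CD4+ lymphocytes that depend on the transcription factor Foxp3. The genes were chosen by name, and each was matched to 1 of the 50600 rows of the deposited count tables. They are the receptor genes Tgfbr1, Tgfbr2 and Tgfbr3, the signalling Smads Smad2, Smad3 and Smad4, and the inhibitors Smad7, Ski, Skil and Smurf2. All 4 libraries form 1 group of primary regulatory T cells of the C57BL/6NJ strain, with no mutant allele named, so no condition was set against another. The names of the authors' alignment files add that the cells were activated and give 48 h, and the labels link a differentiation protocol for CD4+ T cells, but neither says from what culture or animals each biosample came. The biosamples share a donor record, age is given as unknown and sex as not collected. The p-values below therefore measure only the spread between these samples, part of which may be technical.

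Transforming growth factor beta is bound by the type II receptor chain Tgfbr2, which then phosphorylates the type I chain Tgfbr1, and the active Tgfbr1 kinase phosphorylates Smad2 and Smad3. These receptor-activated Smads join Smad4 and enter the nucleus, where the complex binds DNA together with other factors. In CD4+ T cells this pathway, with interleukin 2, is known for inducing Foxp3, and Smad7 and Skil are textbook feedback targets of it.

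The libraries held 43821767, 58696937, 73819468 and 52005209 counts in replicates 1 to 4. The label was checked against marker genes in TPM, a level per length in which each count is divided by the gene's summed exons and every library is brought to the same total. All 5 regulatory T markers and all 5 general T cell markers reached 1 TPM in every library, with sums of 2771 to 2843 and of 2679 to 2794 TPM. The regulatory T markers were uneven, with means of 1488 TPM for Il2ra, 580 for Tnfrsf18, 444 for Ctla4, 289 for Foxp3 and 13.2 for Ikzf2. The markers of other cells were scarce. Those of CD8 T and natural killer cells summed to 1.36 to 2.49 TPM with 0 of 4 expressed, those of B cells to 0.366 to 0.547 with 0 of 4, those of myeloid cells to 3.31 to 5.35 with 1 of 5, those of platelets and red cells to at most 0.329 with 0 of 4, and those of stroma, endothelium and epithelium to 8.29 to 10.5 with 1 of 5. Lyz2, S100a8, Ncr1, Ppbp, Hbb-bs and Hba-a1 had 0 counts in every library. The libraries stood apart at Xist, a noncoding RNA of X inactivation. It had 172 and 145 TPM in replicates 1 and 2, and 0.255 and 0.367 TPM in replicates 3 and 4. The cause of this difference was not tested. In bulk RNA fewer cells that express a gene and less RNA per cell cannot be told apart.

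All 10 members were expressed, meaning that each library held 1 TPM or more, whereas 22.9% of all genes in the files and 47.2% of protein-coding genes were. Such contrasts with other genes only describe, because earlier results of these data were known when the members were chosen. Their counts per library ran between 1512 and 19497, and at each member's mean count the counting error of a library was at most 2.18%. Their median of mean levels was 58.2 TPM, against 28.6 TPM over the 11593 expressed genes, and together they summed to 649, 639, 651 and 647 TPM in replicates 1 to 4. The corepressor Ski was the most abundant, at the 88.8th percentile of expressed genes by level, and Tgfbr3 and Smad3 shared the lowest place, at percentiles 45.3 and 45.0. With the longest annotated transcript as the length Smad2 was the lowest, but that length of Smad2 includes bases that were not counted.

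**Figure D1:**
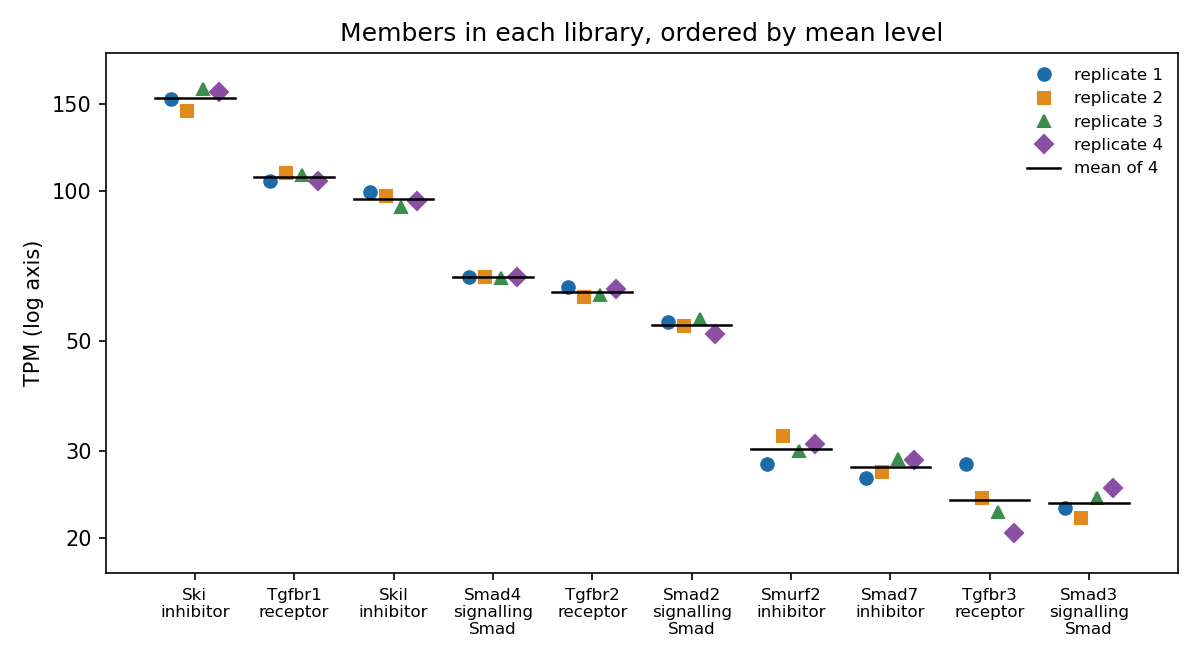
TPM of each member on a log axis, 1 point per library (symbol and colour by replicate) and a black bar for the mean of 4, ordered by mean level with the role under the name. Ski sits near 154 TPM at the left, Tgfbr1 and Skil near 100, Smad4, Tgfbr2 and Smad2 between 51.6 and 67.2, and the other 4 genes between 20.5 and 32.1, where neighbouring genes overlap.

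Of the receptors, the kinase chains were abundant and the coreceptor was lower and more variable. Tgfbr1 (ENSMUSG00000007613.15, chromosome 4, 47353222 to 47414931 of mm10, plus strand), which encodes the type I receptor kinase, had 105, 109, 108 and 105 TPM in replicates 1 to 4, a mean of 107 ± 2.07 (SD, n = 4). Tgfbr2 (ENSMUSG00000032440.13, chromosome 9, 116084293 to 116175360, minus strand), which encodes the type II chain that binds ligand first, had 64.1, 61.2, 61.8 and 63.7 TPM, a mean of 62.7 ± 1.41. Both chains were even across the libraries, and their ranges did not overlap. The ratio of Tgfbr1 to Tgfbr2 was 1.63, 1.78, 1.75 and 1.65 in replicates 1 to 4, a geometric mean of 1.70. On the log2 scale it was 0.77 ± 0.06 and lay above 0 in 4 of 4 libraries. A two-sided exact permutation test that flips the signs of the libraries gave p = 0.13, which is the lowest value its 16 sign patterns can reach, and 0.13 after Benjamini-Hochberg adjustment over the 6 pairs examined, so no pair could pass 0.05.

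Tgfbr3 (ENSMUSG00000029287.14, chromosome 5, 107106570 to 107289629, minus strand) encodes betaglycan, a coreceptor without a kinase that presents ligand to Tgfbr2. It had 28.1, 24.1, 22.6 and 20.5 TPM in replicates 1 to 4, a mean of 23.8 ± 3.25. Replicate 1 was the highest and replicate 4 the lowest, 1.38-fold apart, which was the widest range of any member. Tgfbr3 was higher in replicates 1 and 2, the libraries with abundant Xist, than in replicates 3 and 4. That split was taken from Xist after the values were seen, and 27.5% of all expressed genes did not overlap across it. Tgfbr3 reached 0.439, 0.394, 0.365 and 0.321 times the level of Tgfbr2, a log2 ratio of -1.41 ± 0.19, below 0 in 4 of 4 libraries (exact sign-flip permutation p = 0.13, adjusted 0.13). A share of 4.54% of its exon bases lies in another gene on the same strand, Gm43422, and fragments there can be lost to both.

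The start regions of the kinase chains are printed because these receptors form 1 complex. Start regions from 250 bases before to 50 after the start site were read for 5 members. They came from RefSeq's table on GRCm38.p6, the assembly also called mm10. No region was read for the other members, which does not show that the table lacks them. Capitals mark GGGCGG (the GC box), CCAAT (the CCAAT box), TATAAA (the TATA box) and the Smad-binding letters CAGACA and GTCTAGAC, on either strand. Tgfbr1 lies at chr4:47352972-47353271 (plus strand) and Tgfbr2 at chr9:116175314-116175613 (minus strand).
Tgfbr1: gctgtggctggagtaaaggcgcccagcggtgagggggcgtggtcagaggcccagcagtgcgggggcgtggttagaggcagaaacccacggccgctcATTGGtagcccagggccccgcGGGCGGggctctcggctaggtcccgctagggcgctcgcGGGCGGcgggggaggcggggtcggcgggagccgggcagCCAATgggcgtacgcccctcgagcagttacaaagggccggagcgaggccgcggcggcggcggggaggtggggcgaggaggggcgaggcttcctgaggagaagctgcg
Tgfbr2: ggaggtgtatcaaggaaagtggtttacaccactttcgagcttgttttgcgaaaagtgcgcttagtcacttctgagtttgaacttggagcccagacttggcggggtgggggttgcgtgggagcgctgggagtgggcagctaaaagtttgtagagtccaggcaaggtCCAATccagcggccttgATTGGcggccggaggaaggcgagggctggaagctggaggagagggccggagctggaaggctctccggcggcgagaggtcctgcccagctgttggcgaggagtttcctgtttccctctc
The Tgfbr1 region held 74.7% G and C and the Tgfbr2 region 59.0%, against a median of 52.7% over the 32851 regions read. Tgfbr1 carried 2 GC boxes and 2 CCAAT boxes, and Tgfbr2 carried 0 GC boxes and 2 CCAAT boxes. RefSeq has another start of Tgfbr1, 32994 bases downstream, whose region (chr4:47385966-47386265, plus strand) held 52.0% G and C, 0 GC boxes, 1 CCAAT box and 1 match to CAGACA. Over those 32851 regions, 35.7% held a GC box, 37.4% a CCAAT box, 13.6% a TATA box, 21.04% CAGACA and 0.213% GTCTAGAC. These are matches of letters and do not show that a factor binds there, and a link between them and RNA level was not tested.

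Of the signalling Smads, the shared partner Smad4 was the highest, and Smad2 was above Smad3 by the deposited exon lengths. With the longest annotated transcript as the length the log2 ratio of Smad2 to Smad3 was -0.12, but that length of Smad2 includes bases that were not counted. Smad4 (ENSMUSG00000024515.13, chromosome 18, 73639009 to 73703780) had 67.04, 67.09, 66.96 and 67.22 TPM in replicates 1 to 4, a mean of 67.1 ± 0.108 (SD, n = 4). Its spread of 0.161% of the mean was the smallest of all 11593 expressed genes in TPM and lay below the 1.55% that counting error alone would give, so it is narrower than these counts can resolve.

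Smad2 (ENSMUSG00000024563.15, chromosome 18, 76241580 to 76305731), a receptor-activated Smad whose main form does not bind DNA directly, had 54.4, 53.6, 55.4 and 51.6 TPM, a mean of 53.7 ± 1.60. Smad3 (ENSMUSG00000032402.12, chromosome 9, 63646767 to 63757994), the receptor-activated Smad that does bind DNA, had 23.03, 21.99, 24.06 and 25.19 TPM, a mean of 23.6 ± 1.37. The levels of Smad2 and Smad3 did not overlap, and their sum was 77.4, 75.5, 79.4 and 76.8 TPM.

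Smad2 exceeded Smad3 by 2.36, 2.44, 2.30 and 2.05-fold in replicates 1 to 4, a log2 ratio of 1.19 ± 0.11 that was above 0 in 4 of 4 libraries (exact sign-flip permutation p = 0.13, adjusted 0.13). The turned ratio of -0.12 came from dividing each count by the longest transcript of the GENCODE M21 annotation. That transcript of Smad2 has 8089 bases, while the exons counted in the deposited tables, from the older M13 annotation, sum to 3549. The longer length thus divides the counts of 3549 bases by bases that were not counted as well. With the shorter of both lengths for every gene the log2 ratio was 1.07. Smad4 exceeded Smad3 by 2.91, 3.05, 2.78 and 2.67-fold, a log2 ratio of 1.51 ± 0.08, above 0 in 4 of 4 libraries (exact permutation p = 0.13, adjusted 0.13).

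**Figure D2:**
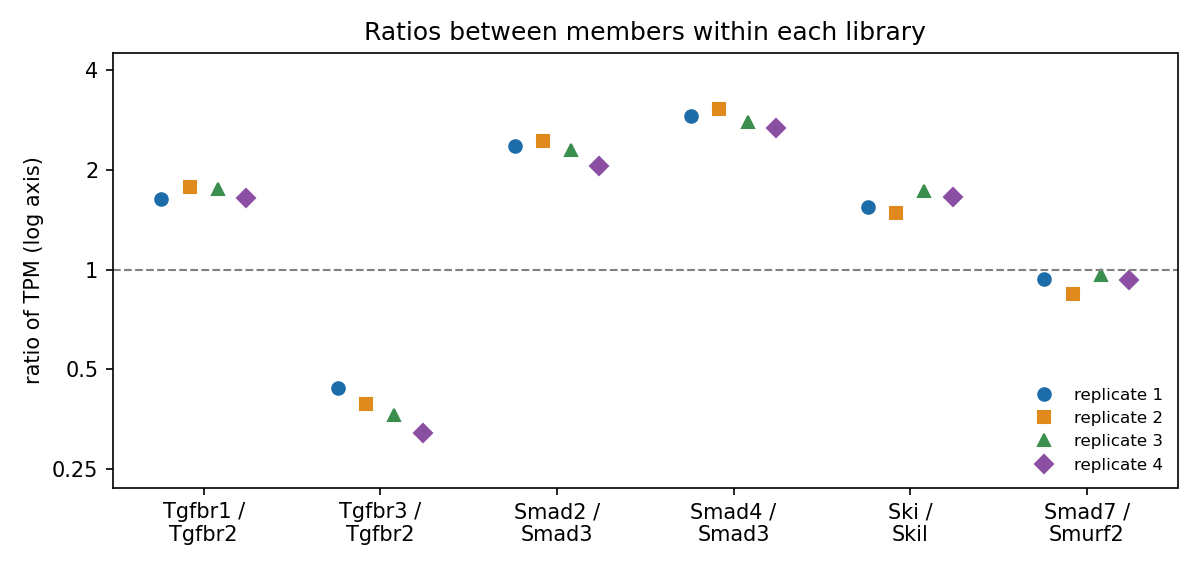
Ratio of TPM between 2 members within each library for 6 pairs, on a log axis with a dashed line at 1, 1 point per library. The points of a pair lie on 1 side of the line throughout, with Smad4 to Smad3 the highest at 2.67 to 3.05 and Tgfbr3 to Tgfbr2 the lowest at 0.321 to 0.439.

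The start region of Smad3 (chr9:63757945-63758244, minus strand, GRCm38.p6) is shown for the signalling Smads.
Smad3: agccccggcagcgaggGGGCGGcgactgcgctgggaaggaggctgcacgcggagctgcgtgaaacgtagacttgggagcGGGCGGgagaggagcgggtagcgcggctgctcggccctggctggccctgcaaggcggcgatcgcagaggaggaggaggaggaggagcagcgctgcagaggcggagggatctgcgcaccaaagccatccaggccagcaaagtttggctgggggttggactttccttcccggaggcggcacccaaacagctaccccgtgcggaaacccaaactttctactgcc
It held 67.7% G and C, 2 GC boxes, and 0 matches to each of the other 4 motifs.

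Among the inhibitors, the nuclear corepressors were abundant and the inhibitors that act at the receptor were lower. Ski (ENSMUSG00000029050.15, chromosome 4, 155154075 to 155222592), which binds Smad complexes and brings corepressors to them, had 153, 145, 161 and 158 TPM in replicates 1 to 4, a mean of 154 ± 6.92 (SD, n = 4). Its relative Skil (ENSMUSG00000027660.16, chromosome 3, 31095058 to 31122577), which encodes SnoN, had 99.6, 97.7, 92.9 and 95.6 TPM, a mean of 96.4 ± 2.86. Ski was above Skil in every library, and their summed level was 253, 243, 254 and 254 TPM. The ratio of Ski to Skil was 1.54, 1.49, 1.73 and 1.66, a log2 ratio of 0.68 ± 0.10 that was above 0 in 4 of 4 libraries (exact sign-flip permutation p = 0.13, adjusted 0.13). It shrank to 0.16 with the longest annotated transcript as the length, since the exons of Skil sum to 9694 bases against 6717 in its longest transcript, and it was -0.12 for the counts without division by length.

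Smad7 (ENSMUSG00000025880.11, chromosome 18, 75367529 to 75395935), which occupies the type I receptor and blocks the signalling Smads there, had 26.5, 27.2, 28.9 and 28.8 TPM in replicates 1 to 4, a mean of 27.8 ± 1.19. Replicates 3 and 4 were the higher ones, and the whole range spanned 1.09-fold.

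Smurf2 (ENSMUSG00000018363.16, chromosome 11, 106820066 to 106920715), a ubiquitin ligase that Smad7 brings to the receptor, had 28.2, 32.1, 29.9 and 31.0 TPM, a mean of 30.3 ± 1.68. Its range overlapped that of Smad7, but within each library Smad7 was below Smurf2. The ratio of Smad7 to Smurf2 was 0.940, 0.846, 0.965 and 0.930, a log2 ratio of -0.12 ± 0.08 (exact sign-flip permutation p = 0.13, adjusted 0.13).

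The start region of Smurf2 (chr11:106920666-106920965, minus strand, GRCm38.p6) is shown for the inhibitors.
Smurf2: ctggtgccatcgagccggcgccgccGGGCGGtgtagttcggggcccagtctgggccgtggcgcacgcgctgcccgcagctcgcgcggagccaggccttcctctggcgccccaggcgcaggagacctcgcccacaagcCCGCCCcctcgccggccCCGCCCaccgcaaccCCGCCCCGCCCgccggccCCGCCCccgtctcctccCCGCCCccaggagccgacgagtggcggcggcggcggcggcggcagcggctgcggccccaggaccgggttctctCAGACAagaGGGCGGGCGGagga
It held 80.3% G and C, 9 GC boxes and 1 match to CAGACA, with some GC boxes overlapping each other. The start region of Ski, which is not printed, held 85.3% G and C, 6 GC boxes and 0 CCAAT boxes.

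Placed in order of mean TPM, the members ran from Ski through Tgfbr1, Skil, Smad4, Tgfbr2, Smad2, Smurf2, Smad7 and Tgfbr3 to Smad3. Each of the first 6 exceeded the next in 4 of 4 libraries without overlap of their ranges, by 1.07-fold for Smad4 over Tgfbr2 and by 1.77-fold for Smad2 over Smurf2. Among the last 4, neighbours in the order overlapped. Smurf2 exceeded Smad7 in 4 of 4 libraries with overlapping ranges, Smad7 was above Tgfbr3 in 3 of 4, and Tgfbr3 was above Smad3 in 2 of 4. Farther apart in the order, the ranges of Smurf2 and Smad7 both lay above that of Smad3, and the lowest Smurf2 value of 28.18 TPM was just above the highest Tgfbr3 value of 28.15 TPM. With the longest annotated transcript as the length, Skil moved above Tgfbr1 and Smad2 to the last place, the latter by a length that includes bases not counted.

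In 5 members the values of replicates 1 and 2 did not overlap those of replicates 3 and 4, a split taken from Xist after the values were seen, and 27.5% of all expressed genes did the same. Tgfbr3 and Skil were higher in replicates 1 and 2, while Smad3, Smad7 and Ski were lower there, and these 5 kept that split under the other 4 scalings of the libraries. Smad4 joined them in opposite directions under 2 of those scalings. The part of what Xist marks in these levels was not tested.

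The members varied less between libraries than most expressed genes, except Tgfbr3. Their median coefficient of variation was 3.62%, against 6.52% over all expressed genes, which are on the whole less abundant. Set against the 500 expressed genes nearest in level, Tgfbr1 at 1.94% compared with a median of 4.35%, Tgfbr2 at 2.25% with 4.94%, and Smad2 at 2.97% with 5.02%. Ski at 4.48%, Smad3 at 5.83% and Smurf2 at 5.56% were close to the genes of their level, whose medians were 4.64%, 6.27% and 5.51%. Tgfbr3 at 13.7% exceeded 92.6% of its 500 neighbours, whose median was 6.24%.

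**Figure D3:**
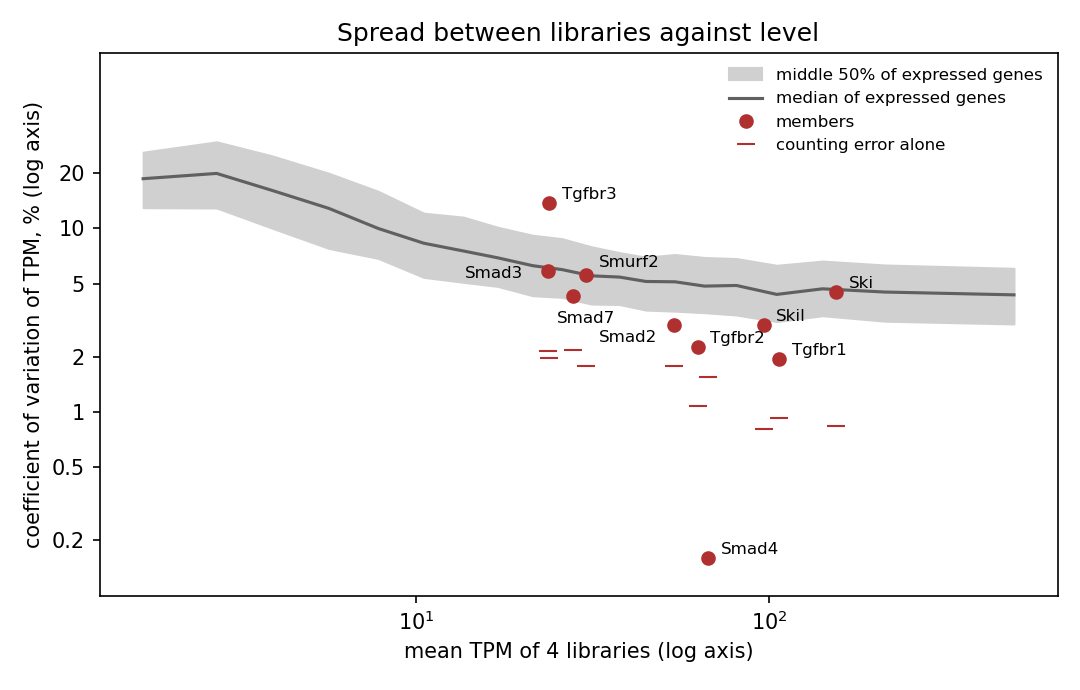
Coefficient of variation of TPM over 4 libraries in percent against mean TPM, both on log axes. Red points are the members, red dashes what counting error alone gives at their mean count, and the grey line and band the median and the middle 50% of expressed genes in 20 bins of level. Tgfbr3 at 13.7% lies above the band, Smad4 at 0.161% lies below its counting error of 1.55%, and the others lie within or under the band.

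No member differed between libraries past the threshold. Each library was set against the other 3 in edgeR's quasi-likelihood test over 12917 genes, with Benjamini-Hochberg adjustment and a threshold of 0.05, and this compares libraries, not conditions. Over all genes, the share called was 0.0697% for replicate 1, 0.00% for replicate 2, 0.0232% for replicate 3 and 0.00% for replicate 4, against 0 of the 10 members each time. At an unadjusted p under 0.05 the count of members was 1 in replicate 1, 0 in replicates 2 and 3, and 1 in replicate 4. The shares of all genes at that limit were 9.31%, 6.78%, 2.31% and 2.49% for replicates 1 to 4, so 1 of 10 members in replicate 1 is about the background share. DESeq2 called 0 of 10 members for replicates 1, 3 and 4, against 0.226%, 0.0227% and 0.00% of genes, and 0 of the 5 members that it gave an adjusted p for replicate 2, against 0.684% of genes. In both cases with 1 member it was Tgfbr3. It was higher in replicate 1 by 0.32 (SE 0.10) on the log2 scale, with an adjusted p of 0.24 in edgeR, and it was lower in replicate 4, by -0.28 (SE 0.12), with an adjusted p of 1.00 in edgeR. Without replicate 2 the increase in replicate 1 was 0.38 and passed. In that fit a larger share of all genes passed than in the main test. Over the other alternatives the increase lay between 0.26 and 0.33 and did not pass. The remaining 9 members had fitted differences between -0.14 (SE 0.09), for Smurf2 in replicate 1, and 0.13 (SE 0.11), for Smad3 in replicate 4.

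**Figure D4:**
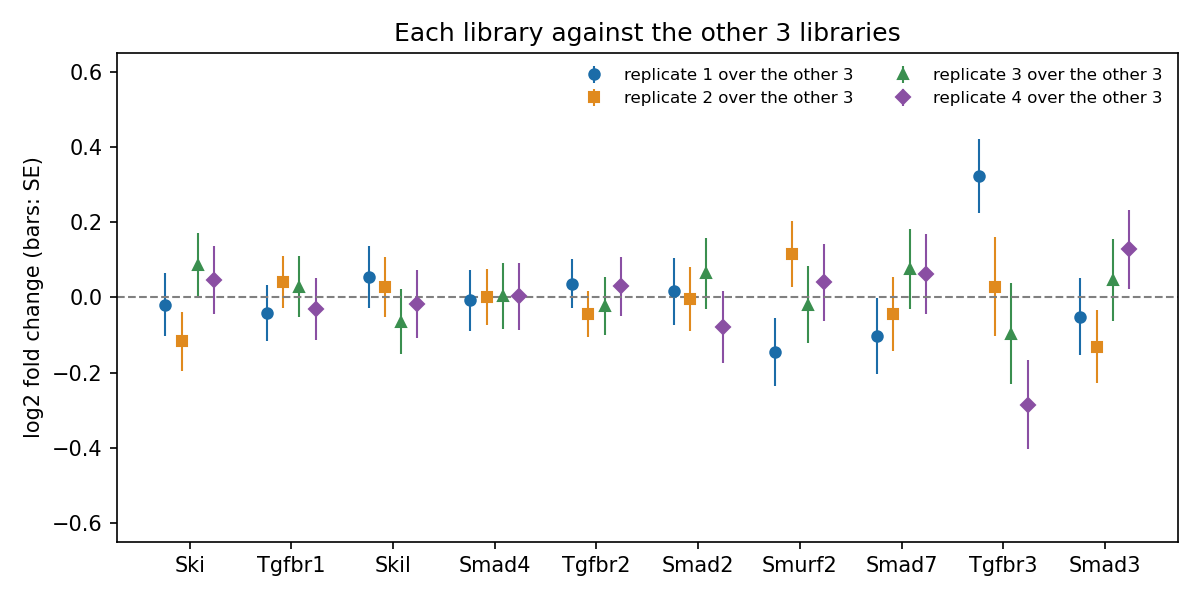
Fitted log2 fold change of each member in 1 library over the other 3, with bars for the standard error and a dashed line at 0. Tgfbr3 is the member whose points lie farthest from 0, at 0.32 in replicate 1 and -0.28 in replicate 4, and the other members lie between -0.14 and 0.13.

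The rest of the pathway was read through lists of 62 further genes, of which 45 were expressed. Of the ligands, Tgfb1 was present at 300.4, 294, 311 and 300.6 TPM in replicates 1 to 4, Tgfb3 averaged 0.476 ± 0.130 TPM, and Tgfb2 had 1 count in all libraries together. Of 10 other receptors of the superfamily, 6 were expressed, and all lay below Tgfbr2. The activin type I receptor Acvr1b was highest at 31.1 ± 0.807 TPM, followed by the bone morphogenetic protein receptor Bmpr2 at 16.8 ± 0.252, while Amhr2 averaged 0.0626 ± 0.0772 and Bmpr1b had 0 counts, which allows up to 0.0398 TPM. Of 5 coreceptors and decoys 3 were expressed. Nrp1, a coreceptor of several growth factors, stood at 53.3 ± 2.35 TPM, above Tgfbr3, and Eng, a relative of Tgfbr3, at 4.57 ± 0.485, with Tdgf1 at 0.382 ± 0.213 and Cd109 at 0.0731 ± 0.0461.

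Of the 4 other Smads, 2 were expressed. The Smads of the bone morphogenetic protein branch, Smad5 at 13.6 ± 0.606 TPM and Smad1 at 7.47 ± 0.264, were both below Smad3. The inhibitory Smad6 averaged 0.521 ± 0.261 TPM, while Smad9 had 1 count in all. Of the 10 adaptors and anchors of the receptor, 8 were expressed, led by Fkbp1a, which binds the type I receptor, at 325 ± 14.8 and Strap at 322 ± 22.1. Zfyve9, which encodes the Smad anchor SARA, averaged 0.364 ± 0.136 TPM and Dab2 0.0345 ± 0.0240.

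All 11 ubiquitin ligases and deubiquitinases of the pathway were expressed, between Stub1 at 176 ± 3.31 and Usp4 at 76.7 ± 4.80 TPM at the top and Nedd4l at 6.23 ± 0.683 and Usp11 at 6.02 ± 0.604 at the bottom. Smurf1, the close relative of Smurf2, stood at 27.1 ± 1.36 TPM and was named after its value was seen. Of 10 nuclear partners 8 were expressed, with the deacetylase Hdac1 at 168 ± 8.89 and the corepressor Ncor1 at 103 ± 4.32 leading. The nuclear factors Foxh1 at 0.725 ± 0.544 TPM and Zeb2 at 0.273 ± 0.0620 were the lowest.

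Of 13 target genes 10 were expressed, a list that also holds Smad7, Ski and Skil. The AP-1 factor Junb led at 1141 ± 75.3 TPM, followed by Ski. The cell cycle inhibitor Cdkn2b was the lowest, with 5 counts, all in replicate 2. The feedback inhibitor Pmepa1 at 90.1 ± 3.26 TPM and the integrin chain Itgae at 0.419 ± 0.0341 were named after their values were seen. These are levels in 1 condition and do not show whether a target was induced.

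**Figure D5:**
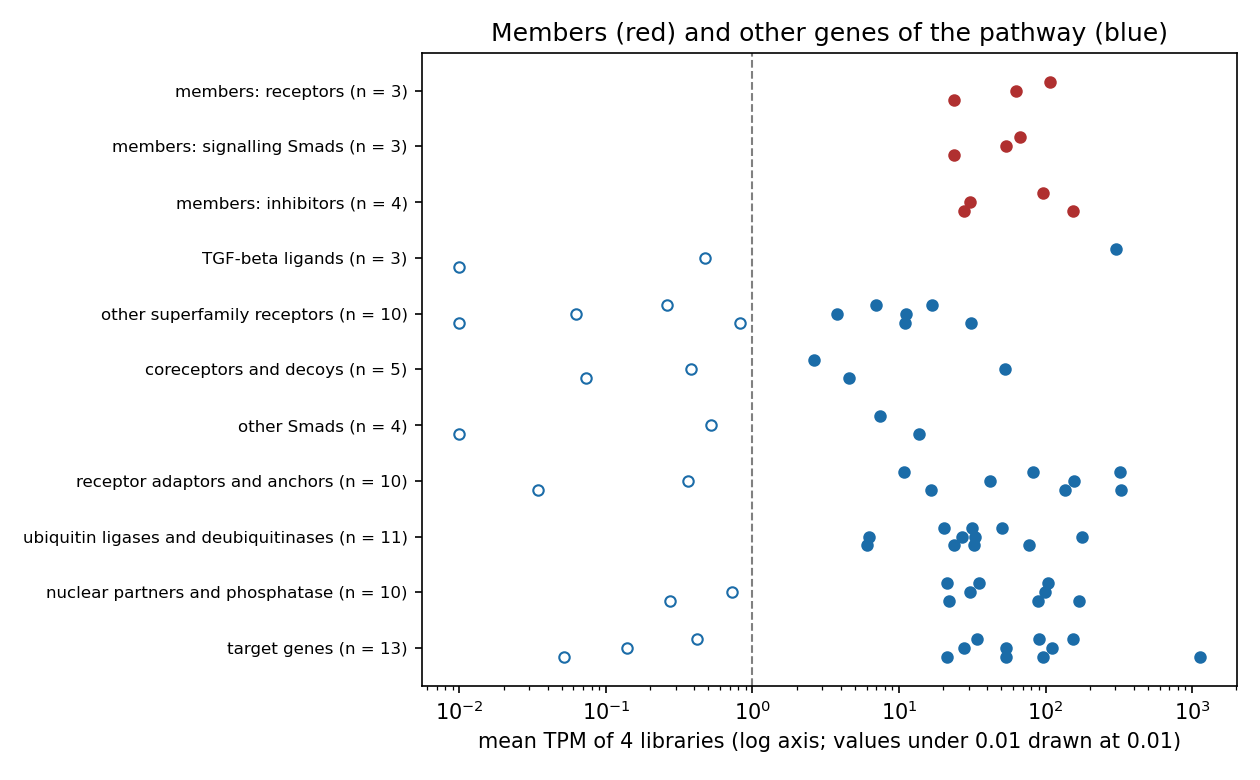
Mean TPM of 4 libraries for the members (red) and the other lists of the pathway (blue) on a log axis, 1 row per list, with the number of genes. The members Smad7, Ski and Skil are drawn again in blue in the row of target genes. Filled circles reached a TPM of 1 (dashed line) in all 4 libraries, open circles did not, and values under 0.01 are drawn at 0.01. All members lie right of the line between 23.6 and 154 TPM, and the list of ubiquitin ligases and deubiquitinases has no open circle.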

How the data were processed

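Total RNA, per the assay label, of 4 regulatory T cell biosamples was sequenced, while the linked library protocol is named for polyadenylated RNA. The authors deposited raw gene counts. FeatureCounts 1.4.6-p4 counted read pairs with both ends aligned, over exons and on the reverse strand, against GENCODE M13, per the file headers, and the labels name mm10. Aligner settings are not given in the sources used here. TPM and FPKM were computed from the counts and the exon length that the same files list. Symbols came from GENCODE M21 by Ensembl identifier without version, for 50376 of 50600 genes. Each library was compared with the other 3 in edgeR 4.0.16 (R 4.3.3; TMM, filterByExpr, quasi-likelihood test, Benjamini-Hochberg at 0.05), which was tested on simulated data. The lone library is assumed there to vary like the rest. DESeq2 1.42.0 was an alternative. Ratios between members were tested by exact sign-flip permutation over 4 libraries. Genes were named by rule, namely all members, the ligands, and the 2 highest and 2 lowest genes of each list. The values of 1 gene that this rule names are not reported here. The members and lists were chosen with earlier results of these data known. Floors for genes at 0 allow 3 counts and, like counting errors, cover counting error only.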

Additional observations from a re-analysis of the deposited data

Results flagged for a closer look

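Of 45 genes and ratios examined over the 4 libraries, 3 had a library far from the other 3 relative to their range, where chance gives about 1 in 20. That rate does not apply to these 3, since a gene whose counts all lie in 1 library meets the limit by construction. No member and no ratio between members was among them. Tgfb2 had 0.0115 TPM in replicate 4 and Smad9 had 0.00861 TPM in replicate 3, each a single count with 0 in the other libraries. Cdkn2b had 0.208 TPM in replicate 2, from 5 counts, and 0 in the other libraries, where up to 0.171 TPM is allowed.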

How the results depend on the processing

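No paired analysis was possible because the libraries form 1 group. All 10 members remained expressed at a TPM of 5, at an FPKM of 1, with the longest transcript as length and without any 1 replicate. With the longest annotated transcript as length the log2 ratio was 0.93 for Tgfbr1 to Tgfbr2, -0.12 for Smad2 to Smad3, 0.16 for Ski to Skil and -0.26 for Smad7 to Smurf2. With the shorter of exon length and longest transcript, chosen after seeing the data, these were 0.93, 1.07, 0.16 and -0.26. Without any length they were 0.44, 0.55, -0.12 and -0.57, with -1.73 for Tgfbr3 to Tgfbr2 and 0.93 for Smad4 to Smad3. The lengths alone produce these shifts, as the counts are the same. A pseudocount of 1 and leaving out a replicate moved no ratio by more than its SD. Genes called in replicates 1 to 4 against the others numbered 9, 0, 3 and 0. DESeq2 called 16, 28, 5 and 0, edgeR without a filter called 105, 60, 35 and 16, and scaling by DESeq2's method changed none of these counts. With 1 of the other libraries left out the counts ran from 23 to 341 in replicate 1, 3 to 52 in replicate 2, 16 to 21 in replicate 3 and 2 to 9 in replicate 4. The cause of these shifts in counts was not tested. Of single members, Tgfbr3 in replicate 1 without replicate 2 was the only one to pass under any of these alternatives. A larger share of all genes passed there than in the main test. The list of coreceptors and decoys had 1 expressed gene at a TPM of 5, against 3 at a TPM of 1. Depth limits the detection of genes with under 3 counts, not that of the members. The spread of Smad4 lay below its counting error, so depth does limit the reading of that spread.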

Other observations

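The narrow spread of Smad4 depended on how the libraries were scaled. Its coefficient of variation of 0.161% in TPM ranked 1st from the lowest of 11593 expressed genes. It was 0.257% with DESeq2's size factors and 0.277% with TMM library sizes, the 2nd lowest in each, 0.358% in TPM over protein-coding genes and 0.885% in FPKM, the 46th lowest. All of these lie below the counting error of 1.55%. Tgfbr2 ranked from the 161st to the 694th lowest over the scalings applied to all 11593 genes, with 1.34% in FPKM and 2.25% in TPM. Tgfbr3 lay between 13.2% and 14.1% under all 5 scalings.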
